A study of Mus musculus with 12 samples.

Results

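Imprinted genes are transcribed mainly from the copy inherited from one parent, and 50 of them, outside the Igf2, H19 and Mest genes, were followed in mouse liver after natural mating and after in vitro fertilization (IVF). The genes were chosen as a list of known imprinted symbols, and each was read from the brightest probe set that carried its symbol and no other. A probe set with that symbol alone was present for 43 of the 50 genes, each with exactly 1 such probe set among 34760 on the array. Ube3a, Mirg and Gnas were represented in probe sets that carried several symbols, and Kcnq1ot1, Slc22a3, Peg13 and Zrsr1 had no probe set with their symbol, so these 7 genes were not analysed here. Of the 43 measured genes, 16 were listed as expressed from the paternal copy, 22 from the maternal copy and 5 from either copy by tissue or isoform. The listing is not specific to liver, and whether each gene is imprinted in liver was not examined. Their mean signals were above the median of all probe sets for 26 of 43, and no probe set separated the parental copies, so every value is the sum over both.

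In imprinting, DNA methylation laid down in the egg or the sperm marks a control region, survives the reprogramming of the early embryo and sets which parental copies of the neighbouring genes are active, either directly or by silencing a long non-coding RNA that would silence them. Many imprinted genes govern fetal and placental growth, and in liver much of their expression declines after birth. Embryo culture takes place in the window in which these marks have to be maintained, which is why imprinted genes are often examined after IVF. ATF7 is a transcription factor of the ATF/CREB family that binds cyclic AMP response elements (CRE) and can recruit histone methyltransferases to silence its targets.

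Livers of 12 male mice on the C57BL6/JJmsSlc background were profiled singly on Affymetrix Mouse Gene 1.0 ST arrays, with 3 mice in each of 4 groups. The groups were wild-type (WT) mice from natural mating, WT mice from IVF, Atf7-/- mice (which lack Atf7 in the whole body) from natural mating, and Atf7-/- mice from IVF. The age is 4 weeks in the labels and 3 weeks in the study's methods. Oocytes for IVF came from females superovulated with hormones, a treatment that the methods do not describe for natural mating. IVF embryos were transferred at the 2-cell stage into pseudopregnant ICR females. Superovulation, fertilization in vitro, culture, transfer and a uterus of another strain therefore cannot be told apart. Atf7-/- mice had Atf7-/- parents, and WT mice had WT parents. Pups from natural mating were carried by mothers of their own genotype, and IVF pups of both genotypes by ICR females. The genotypes of pup, parents and, after natural mating, carrying mother cannot be told apart in the contrast named ATF7 loss. The change of carrying mother also enters the interaction. The IVF livers of a group came from different recipients and those of natural mating from naturally pregnant females, but oocytes of several females were pooled for IVF, so mice of an IVF group may share a genetic parent. Values are log2 signals, and a call required an adjusted p no greater than 0.05, over all probe sets, with a log2 fold change of 0.6 or more in either direction. In bulk tissue, fewer cells of a type and less RNA per cell cannot be told apart. Where groups of livers are described as lying apart for a gene, the share of all probe sets that do so was not counted.

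The array medians lay between 6.22 and 6.34, and arrays of a group correlated at r = 0.980 to 0.990 across probe sets. Atf7 had 2 probe sets. The less bright averaged 8.78 ± 0.18 (SD, n = 3) and 8.04 ± 0.43 in WT livers from natural mating and IVF, and 5.96 ± 0.14 and 5.52 ± 0.17 in the corresponding Atf7-/- livers, and with ATF7 loss in natural mating it fell by 2.82 (SE 0.19, adjusted p = 1.93e-05), in the direction of the labels. The brighter averaged 9.02 ± 0.22, 8.76 ± 0.10, 8.68 ± 0.07 and 8.38 ± 0.08 over the groups in the same order, and its difference of -0.34 (SE 0.11, adjusted p = 0.0758) did not pass. Whether either lies in the deleted part was not examined. The 15 hepatocyte markers measured had a mean level between 12.94 and 13.14 on every array, and the 8 pancreatic acinar markers one between 5.57 and 5.79.

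Promoter sequences are shown for Phlda2, Slc22a18, Cd81 and Ndn, which were called in a contrast and have a single entry in the RefSeq table, and for Peg3 and Meg3, whose promoters hold a full CRE. Ddc, also called, has entries for 2 alternative starts and is not shown. Each is the 250 bases before the annotated start on GRCm38.p6, written 5′ to 3′ on the strand of the gene. Capitals mark the CRE core TGACG on either strand, the full palindromic CRE TGACGTCA, which contains that core, and the hexamer TGCCGC that the imprint-protecting zinc finger protein ZFP57 binds when methylated, also on either strand. The Phlda2 promoter is chr7:143502525-143502774 (minus strand, 21 CpG), that of Slc22a18 chr7:143473539-143473788 (plus strand, 0 CpG), that of Cd81 chr7:143052500-143052749 (plus strand, 16 CpG), that of Ndn chr7:62348027-62348276 (plus strand, 5 CpG), that of Peg3 chr7:6730420-6730669 (minus strand, 8 CpG) and that of Meg3 chr12:109540746-109540995 (plus strand, 10 CpG).
Phlda2: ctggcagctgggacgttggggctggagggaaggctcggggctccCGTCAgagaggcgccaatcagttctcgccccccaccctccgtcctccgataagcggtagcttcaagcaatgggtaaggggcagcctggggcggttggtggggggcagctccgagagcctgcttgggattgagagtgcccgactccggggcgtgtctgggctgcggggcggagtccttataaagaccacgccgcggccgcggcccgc
Slc22a18: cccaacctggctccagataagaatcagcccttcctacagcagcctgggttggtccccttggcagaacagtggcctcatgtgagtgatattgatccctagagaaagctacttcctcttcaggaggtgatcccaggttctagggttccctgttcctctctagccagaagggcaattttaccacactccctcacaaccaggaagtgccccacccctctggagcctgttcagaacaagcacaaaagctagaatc
Cd81: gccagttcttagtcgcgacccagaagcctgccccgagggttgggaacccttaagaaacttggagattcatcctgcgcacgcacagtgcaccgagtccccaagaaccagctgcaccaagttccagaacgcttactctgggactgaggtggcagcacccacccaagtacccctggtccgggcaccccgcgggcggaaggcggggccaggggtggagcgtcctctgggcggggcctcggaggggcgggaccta
Ndn: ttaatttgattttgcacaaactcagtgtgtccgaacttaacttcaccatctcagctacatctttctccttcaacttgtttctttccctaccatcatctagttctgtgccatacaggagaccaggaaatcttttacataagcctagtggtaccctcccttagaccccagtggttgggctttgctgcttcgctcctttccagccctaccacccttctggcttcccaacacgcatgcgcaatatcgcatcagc
Peg3: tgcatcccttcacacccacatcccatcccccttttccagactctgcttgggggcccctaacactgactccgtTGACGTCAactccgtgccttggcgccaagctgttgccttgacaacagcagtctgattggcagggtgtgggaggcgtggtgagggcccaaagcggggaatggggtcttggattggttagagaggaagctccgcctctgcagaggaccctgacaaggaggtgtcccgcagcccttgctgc
Meg3: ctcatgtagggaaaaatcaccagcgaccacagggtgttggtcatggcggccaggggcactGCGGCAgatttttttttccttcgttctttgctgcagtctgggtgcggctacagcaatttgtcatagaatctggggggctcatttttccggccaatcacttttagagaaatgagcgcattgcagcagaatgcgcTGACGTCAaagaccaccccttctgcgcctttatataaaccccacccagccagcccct

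The CRE core in Phlda2 began 206 bases before the start, and the full CRE began 178 bases before the start in Peg3 and 57 bases before it in Meg3. Slc22a18, Cd81 and Ndn had none of the motifs in these bases. RefSeq windows from 250 bases before to 50 bases after the start were held for 32 of the 43 genes, as 42 windows. Of the called genes, Peg10 and Sgce had no window, so whether their promoters hold any of the motifs was not examined. A full CRE was present in 3 of those 42 windows (7.14%) and in 1.79% of all 32851 windows. The Usp29 and Peg3 windows overlap on opposite strands and share the same site. The CRE core was present in 12 of 42 windows (28.6%) against 20.8% of all, and the ZFP57 hexamer in 10 of 42 (23.8%) against 11.6%. The member windows were richer in CpG, with a median of 15.5 against 7 in all windows. Peg3, Usp29 and Meg3, which hold the full CRE, were not called in any comparison.

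Most of the 43 genes passed no test, and the 7 that were called in at least 1 contrast were of 2 kinds. Ndn and Ddc were higher after IVF in both genotypes. Peg10, Phlda2, Slc22a18, Cd81 and Sgce were higher in Atf7-/- than in WT liver after natural mating, beside 3.83% of all probe sets. Between the genotypes after IVF no imprinted gene was called, beside 0% of all probe sets higher and 0.00575% lower. A moderated F test over the 4 groups passed an adjusted p of 0.05 for 11 of 43 genes (25.6%), beside 19.3% of all probe sets. The plot of all effects shows how close to 0 most of the other genes lay.

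**Figure D1:**
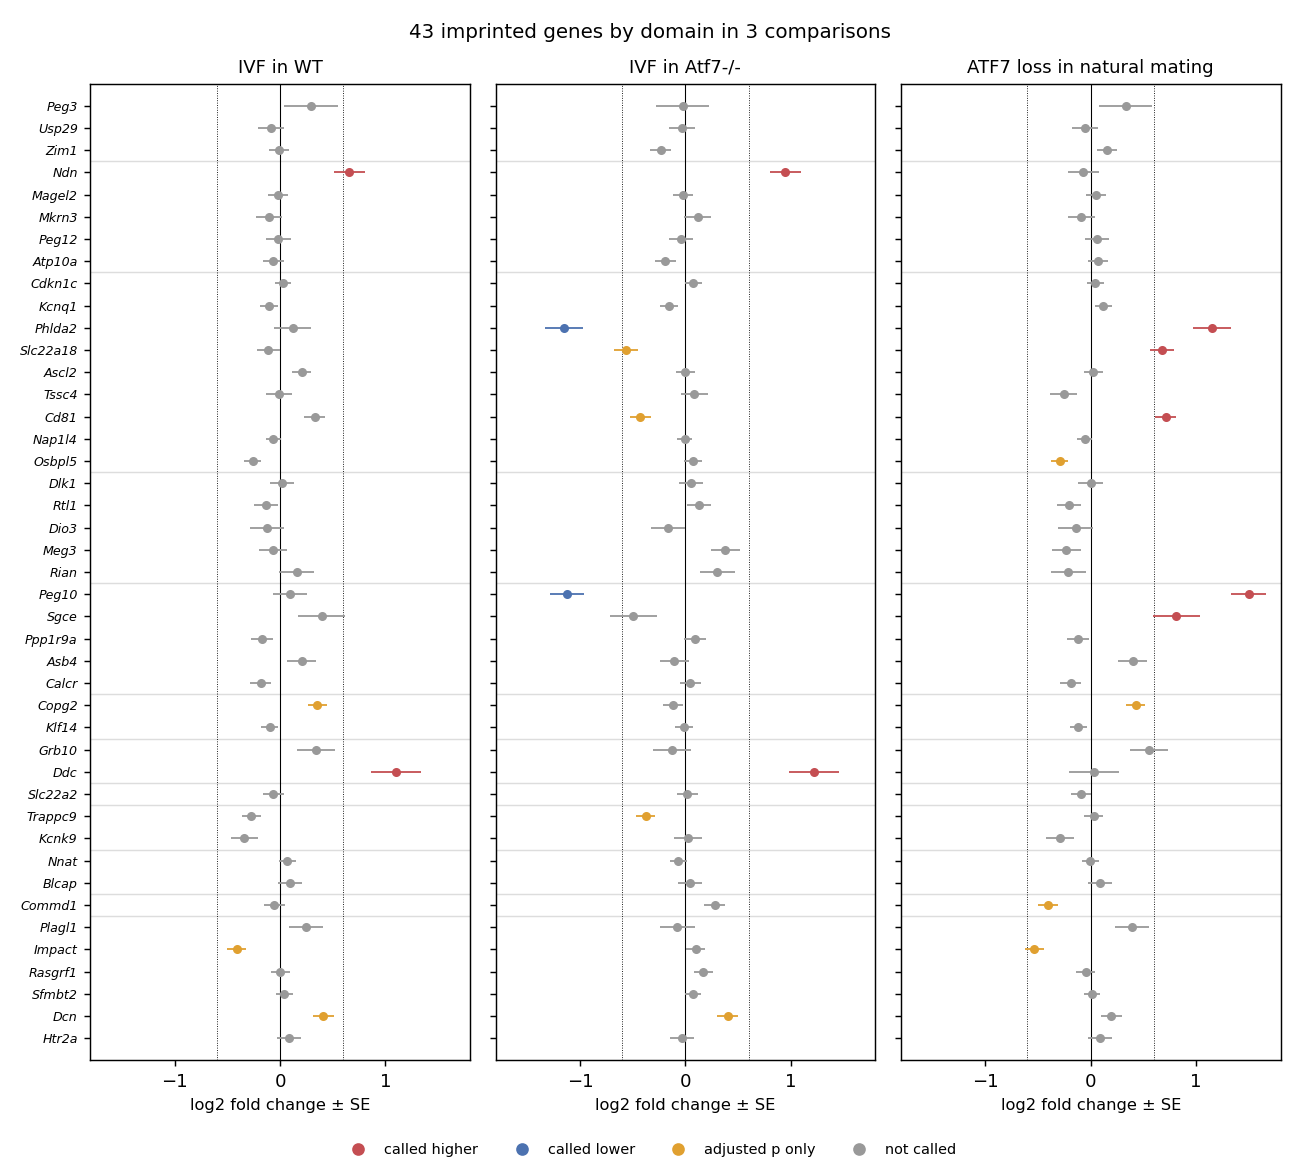
Log2 fold changes of the 43 measured imprinted genes (horizontal axis, with a bar of 1 SE on each side) with IVF in WT, IVF in Atf7-/- and loss of ATF7 in natural mating, 1 row per gene ordered by domain. Red and blue points are called higher or lower, amber points passed the adjusted p only, dotted lines mark 0.6 either side of 0, and the called genes number 2, 4 and 5 in the panels from left to right.

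The comparison of IVF with natural mating in WT liver asks whether conception in vitro left a change in imprinted expression in the young animal. There, 2 of 43 genes were called higher, beside 2.85% of all probe sets, and 0 lower, beside 1.67%. At an adjusted p of 0.05 with any fold, 5 of 43 (11.6%) passed beside 8.62% of all probe sets, and 10 of 43 had an unadjusted p under 0.05 by limma beside 24.9%. The median log2 fold change of the 43 genes was -0.01 and that of all probe sets -0.04. In Atf7-/- liver, 2 genes were called higher beside 3.27% of all probe sets and 2, Peg10 and Phlda2, lower beside 3.51%, and 8 of 43 (18.6%) passed with any fold beside 12.9%. Ndn and Ddc were the genes called higher in both genotypes. The WT and Atf7-/- contrasts share no arrays in their group means, but for each gene they use the same estimate of the spread, from all arrays. The share of all probe sets called higher in both was not counted.

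Ndn encodes necdin, a growth-restraining protein of the MAGE family expressed from the paternal copy in the Prader-Willi region. Its level was 6.001, 6.12 and 5.87 in the WT natural mating livers and 6.53, 6.82 and 6.60 in the WT IVF livers. In Atf7-/- mice it was 5.78, 5.91 and 6.09 after natural mating and 6.56, 6.95 and 7.10 after IVF. All 6 IVF livers were above all 6 livers from natural mating. The log2 fold change with IVF was 0.66 (SE 0.15, limma adjusted p = 0.0221) in WT and 0.94 (SE 0.15, adjusted p = 0.00221) in Atf7-/-, and the difference between these, 0.29, had an adjusted p of 0.47. The WT call was lost in 4 of 12 fits that each left out 1 array (WT natural mating replicate 1 or 3, WT IVF replicate 2 or 3), with log2 fold changes of 0.57 to 0.72 over the 12 and adjusted p of up to 0.0784. The other measured genes of the Prader-Willi and Angelman region, Magel2, Mkrn3, Peg12 and the maternal Atp10a, were not called, with log2 fold changes from -0.19 to 0.12 in both IVF contrasts.

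Ddc encodes the aromatic amino acid decarboxylase that makes dopamine and serotonin, and lies beside Grb10. Its level was 7.59, 7.58 and 8.34 in the WT natural mating livers and 9.01, 8.69 and 9.12 in the WT IVF livers. In Atf7-/- liver it was 7.99, 7.67 and 7.96 after natural mating and 9.24, 8.65 and 9.39 after IVF. The IVF livers were again all above those from natural mating. The log2 fold change was 1.10 (SE 0.24, adjusted p = 0.0188) in WT and 1.22 (SE 0.24, adjusted p = 0.00681) in Atf7-/-, which corresponds to 2.15-fold and 2.33-fold. The WT call was lost without WT natural mating replicate 1 or 2 or WT IVF replicate 1 or 3 (adjusted p of up to 0.0682), and in a fit of these groups alone (adjusted p = 0.0511). Grb10, an adaptor that restrains insulin receptor signalling, had log2 fold changes of 0.34 in WT and -0.12 in Atf7-/- and was not called.

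Dcn encodes decorin, a collagen-binding matrix proteoglycan made by stellate cells and fibroblasts, and is imprinted in placenta. Its level was 11.46, 11.56 and 11.26 in WT natural mating against 11.71, 11.96 and 11.84 in WT IVF. In Atf7-/- liver it was 11.63, 11.64 and 11.62 against 11.96, 12.03 and 12.10. Within each genotype the IVF livers were all higher, by 0.41 (SE 0.10, adjusted p = 0.0294) in WT and 0.40 (SE 0.10, adjusted p = 0.0211) in Atf7-/-, below the fold required for a call. Of 24 stellate and fibroblast markers, 3 were called higher with IVF in WT and 0 with IVF in Atf7-/-, with medians of 0.40 and 0.04. The mean level of that list ran from 7.77 to 8.16 in the WT natural mating livers, 8.31 to 8.58 in the WT IVF livers, 8.24 to 8.49 in the Atf7-/- natural mating livers and 8.46 to 8.51 in the Atf7-/- IVF livers. With IVF in WT, 3 of 24 cell-cycle genes were also called higher (median 1.04) and 0 of 24 with IVF in Atf7-/- (median -0.23). Of 18 blood cell markers, 1 was called higher with IVF in WT (median 0.15) and 5 with IVF in Atf7-/- (median 0.20), where their mean level ran from 5.96 to 6.05 after natural mating and from 6.19 to 6.39 after IVF. Among 11 fetal liver genes, 1 was called higher with IVF in WT (median 0.49). With IVF in Atf7-/-, 2 of them were called higher and 1 lower (median -0.03). The part of these lists in the Ndn, Ddc and Dcn results was not tested. The adjusted p rose above 0.05 in 4 of 12 left-out fits in WT and 5 of 12 in Atf7-/-, reaching 0.101 and 0.0817, and in WT also with only these groups (0.112) and after further quantile normalization (0.0659).

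**Figure D2:**
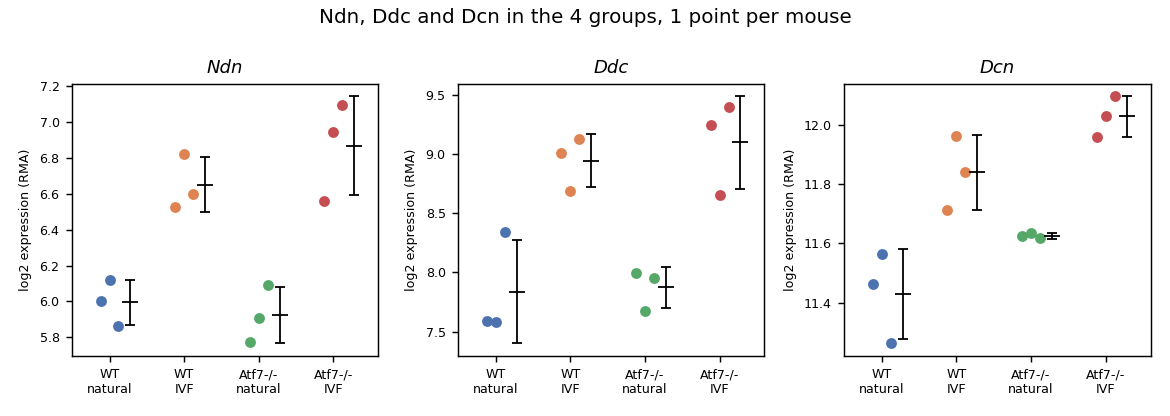
Log2 expression of Ndn, Ddc and Dcn (vertical axis, log2 signal) in the 4 groups, 1 point per mouse with the group mean as a short line and the SD (n = 3) as a bar beside the points. For Ndn and Ddc all 6 IVF livers lie above all 6 livers from natural mating.

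Trappc9, a subunit of a vesicle-tethering complex whose intron holds Peg13, was lower after IVF in Atf7-/- liver. Its level was 7.36, 7.44 and 7.56 in the WT natural mating livers and 7.21, 7.13 and 7.20 in the WT IVF livers. In Atf7-/- liver it was 7.47, 7.43 and 7.54 after natural mating and 7.23, 7.11 and 6.98 after IVF. The groups were apart in both genotypes, with a change of -0.38 log2 units (SE 0.09, adjusted p = 0.0187) in Atf7-/- and -0.27 (SE 0.09, adjusted p = 0.0863) in WT, both below the fold required for a call. The Atf7-/- value lost its adjusted p without Atf7-/- natural mating replicate 1 or 3 or Atf7-/- IVF replicate 2 or 3 (up to 0.0794) and in a fit of these groups alone (0.0572).

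The comparison of Atf7-/- with WT liver after natural mating asks which imprinted genes differ when ATF7 is missing in pup, parents and carrying mother alike. There, 5 of 43 genes (11.6%) were called higher, beside 3.83% of all probe sets, and 0 lower, beside 3.67%. With any fold, 9 of 43 (20.9%) passed beside 13.7%. All 5 called genes lie in the Peg10 region of chromosome 6 (2 of 5 measured genes) or the Kcnq1 region of chromosome 7 (3 of 9). The median log2 fold change of the 43 genes was 0.03 beside -0.02 for all probe sets, with 23 genes above 0.

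Peg10, a retrotransposon-derived paternal gene that the placenta requires, had the largest change among the 43 genes. Its level was 6.16, 6.46 and 5.84 in the WT natural mating livers, 6.28, 6.42 and 6.05 in the WT IVF livers, 7.91, 7.55 and 7.49 in the Atf7-/- natural mating livers and 6.54, 6.58 and 6.46 in the Atf7-/- IVF livers. The Atf7-/- natural mating livers stood above the other 9. The difference from WT natural mating was 1.50 (SE 0.16, adjusted p = 0.000276), a 2.83-fold change, and with IVF in Atf7-/- it fell by 1.12 on the log2 scale (SE 0.16, adjusted p = 0.00164). Sgce, the ε-sarcoglycan gene transcribed from the opposite strand beside Peg10, was 8.22, 7.91 and 7.35 in WT natural mating and 8.72, 8.75 and 8.45 in Atf7-/- natural mating. In IVF livers it was 8.10, 8.45 and 8.11 in WT and 7.89, 8.51 and 8.02 in Atf7-/-. The Atf7-/- natural mating livers were above all WT natural mating livers but overlapped the IVF livers. The difference was 0.81 (SE 0.22, adjusted p = 0.0334), and it was lost without Atf7-/- natural mating replicate 1, 2 or 3 or WT natural mating replicate 2 or 3 (log2 fold changes of 0.57 to 1.01 and adjusted p of up to 0.103 over the 12 fits) and in a fit of these groups alone (0.0714). The other measured genes of this region, Ppp1r9a, Asb4 and Calcr, were not called, Asb4 with a difference of 0.40 (adjusted p = 0.0874).

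Phlda2 encodes a pleckstrin homology protein that restrains placental growth, and Slc22a18, its immediate neighbour, a transporter-like membrane protein. Phlda2 was 6.27, 6.26 and 6.21 in the WT natural mating livers, 6.53, 6.05 and 6.51 in the WT IVF livers, 7.49, 7.64 and 7.06 in the Atf7-/- natural mating livers and 6.09, 6.53 and 6.10 in the Atf7-/- IVF livers. The Atf7-/- natural mating livers were the 3 highest, and the other groups overlapped. The difference was 1.15 (SE 0.18, adjusted p = 0.00193), and with IVF in Atf7-/- it fell by 1.16 on the log2 scale (SE 0.18, adjusted p = 0.00218). Slc22a18 was 9.83, 9.83 and 9.74 in the WT natural mating livers, 9.73, 9.71 and 9.62 in the WT IVF livers, 10.49, 10.54 and 10.39 in the Atf7-/- natural mating livers and 10.17, 9.74 and 9.83 in the Atf7-/- IVF livers. Again the 3 Atf7-/- natural mating livers were the highest, by 0.68 over WT (SE 0.11, adjusted p = 0.00247), and with IVF in Atf7-/- it fell by 0.56 (SE 0.11, adjusted p = 0.00718), below the fold required for a call.

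Cd81, a tetraspanin receptor, lies further along the same region. Its level was 11.95, 11.67 and 11.98 in the WT natural mating livers, 12.20, 12.28 and 12.10 in the WT IVF livers, 12.60, 12.49 and 12.64 in the Atf7-/- natural mating livers and 12.20, 12.18 and 12.06 in the Atf7-/- IVF livers. The groups from natural mating were apart at either end, with the IVF groups between them. The genotypes differed by 0.71 (SE 0.10, adjusted p = 0.00114) after natural mating, and with IVF in Atf7-/- it fell by 0.43 (SE 0.10, adjusted p = 0.0178), below the fold required, which was lost without Atf7-/- natural mating replicate 1 or 3 or Atf7-/- IVF replicate 3 (up to 0.0741). Of the other genes of the region, the cyclin-dependent kinase inhibitor Cdkn1c, the nearest measured gene to Slc22a18 on that side, differed by 0.04 and the potassium channel gene Kcnq1 by 0.12, and Ascl2, Tssc4 and Nap1l4 were not called. Osbpl5, at the far end, fell by 0.30 (SE 0.08, adjusted p = 0.0394), below the fold required, from 7.01, 7.08 and 7.23 to 6.78, 6.82 and 6.85. Its IVF livers were at 6.79, 6.93 and 6.83 in WT and 6.95, 6.86 and 6.85 in Atf7-/-, below all WT natural mating livers. That value was lost in 8 of 12 left-out fits (adjusted p of up to 0.119) and under 4 other settings. None of 7 genes outside the list that were measured within the Kcnq1 region was called in any contrast.

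**Figure D3:**
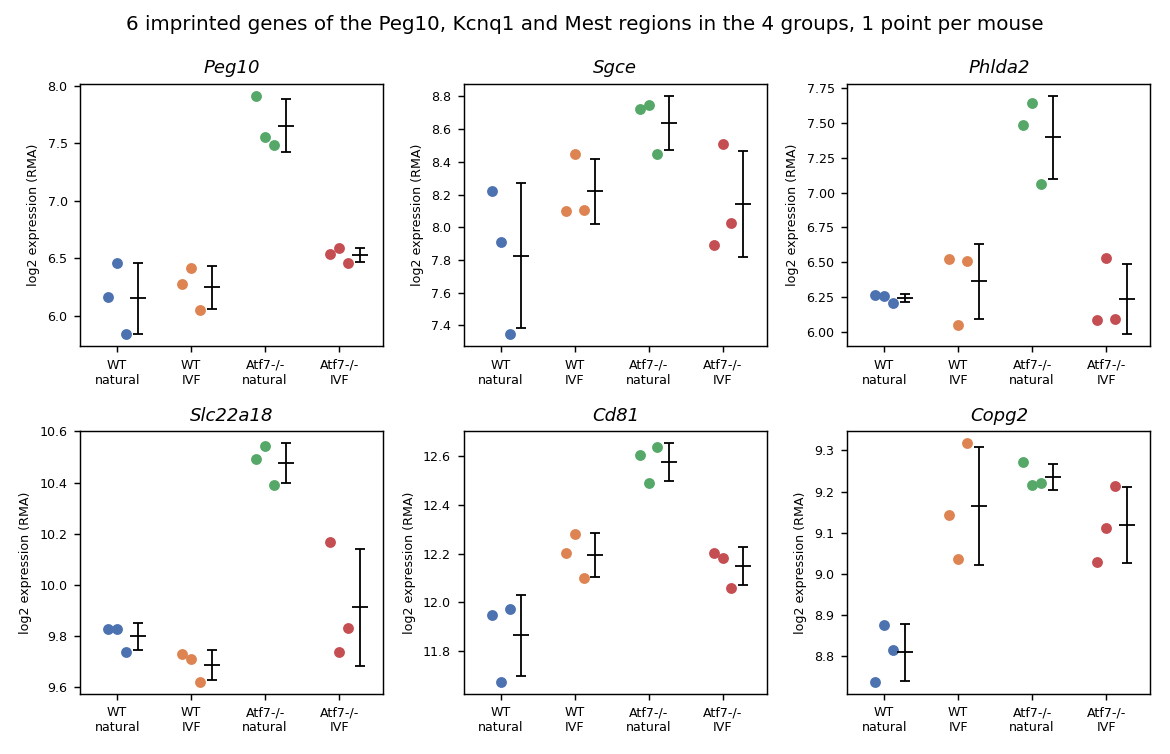
Log2 expression of Peg10, Sgce, Phlda2, Slc22a18, Cd81 and Copg2 (vertical axis, log2 signal) in the 4 groups, 1 point per mouse with the group mean as a short line and the SD (n = 3) as a bar beside the points. In Peg10, Phlda2, Slc22a18 and Cd81 the 3 Atf7-/- natural mating livers are the highest of the 12. The share of all probe sets with that order was not counted.

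Called genes stood beside uncalled genes along both regions. In RefSeq gene order, Phlda2 and Slc22a18 were adjacent. Of the measured genes, Cdkn1c was the next beyond Slc22a18, and Kcnq1, Trpm5 and Tssc4 lay between Cdkn1c and Cd81, as did the unmeasured Kcnq1ot1. In the Peg10 region, Sgce and Peg10 were adjacent. Of 9 genes outside the list measured there, Tfpi2 (0.79, adjusted p = 0.00153) and Pon3 (0.65, adjusted p = 0.022) were also called higher with ATF7 loss. Tfpi2 also had a called interaction (-0.83, adjusted p = 0.0147). With IVF in WT it rose by 0.50 (adjusted p = 0.026), below the fold required. Whether genes outside the list are imprinted was not examined. Bet1 (1.01, adjusted p = 0.0168) and Casd1 (0.72, adjusted p = 0.00398) of the same region were called higher with IVF in WT. These neighbours were chosen after their values were seen.

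**Figure D4:**
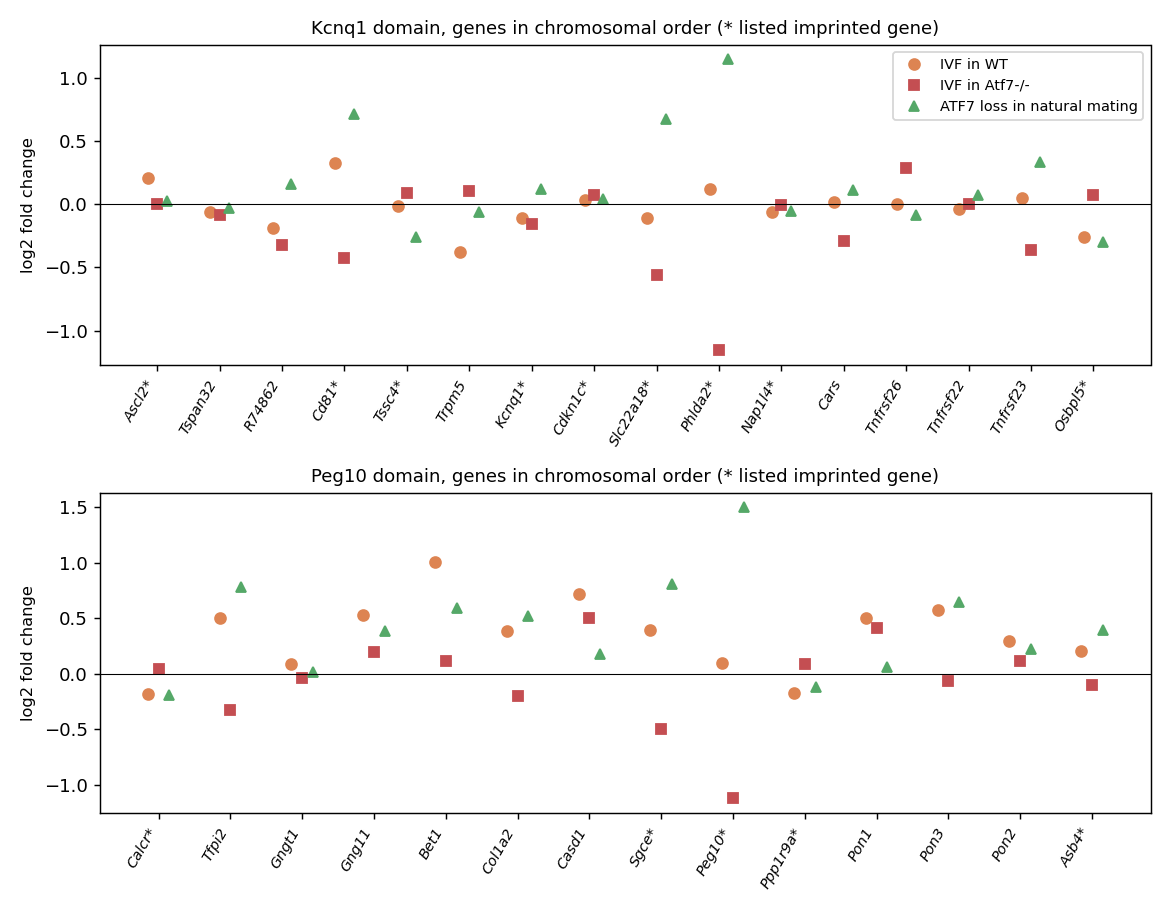
Log2 fold changes (vertical axis) of measured genes of the Kcnq1 and Peg10 regions in RefSeq gene order (horizontal axis, order only, listed imprinted genes with an asterisk), with a circle for IVF in WT, a square for IVF in Atf7-/- and a triangle for ATF7 loss in natural mating. With ATF7 loss, Phlda2 and Slc22a18 stand together at 1.15 and 0.68, with Cdkn1c plotted next at 0.04, and Peg10 and Sgce stand together at 1.50 and 0.81.

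Copg2, Impact and Commd1 passed the adjusted p with ATF7 loss without reaching the fold. Copg2, a coatomer subunit gene that overlaps Mest, was 8.74, 8.88 and 8.82 in the WT natural mating livers, 9.14, 9.04 and 9.32 in the WT IVF livers, 9.27, 9.22 and 9.22 in the Atf7-/- natural mating livers and 9.03, 9.11 and 9.21 in the Atf7-/- IVF livers. The WT natural mating livers were below the other 9, by 0.42 against Atf7-/- (SE 0.09, adjusted p = 0.0116) and by 0.36 against WT IVF (SE 0.09, adjusted p = 0.0394), the latter lost in 8 of 12 left-out fits (up to 0.129), with only those groups (0.122) and after further quantile normalization (0.0734). Impact, a paternal gene whose product holds back the amino acid sensor GCN2, was 8.55, 8.45 and 8.43 in the WT natural mating livers, 8.05, 8.21 and 7.95 in the WT IVF livers, 7.94, 8.03 and 7.86 in the Atf7-/- natural mating livers and 8.01, 8.05 and 8.07 in the Atf7-/- IVF livers. Here the WT natural mating livers were above the other 9. Impact fell by 0.53 with ATF7 loss (SE 0.09, adjusted p = 0.00293) and by 0.41 with IVF in WT (SE 0.09, adjusted p = 0.02), the latter lost without WT natural mating replicate 1 or 2 or WT IVF replicate 1 or 3 (up to 0.0727) and with only those groups (0.0819). Commd1, a copper homeostasis gene that hosts Zrsr1, was 6.72, 6.94 and 6.98 in the WT natural mating livers, 6.82, 6.87 and 6.79 in the WT IVF livers, 6.48, 6.40 and 6.54 in the Atf7-/- natural mating livers and 6.80, 6.83 and 6.62 in the Atf7-/- IVF livers. The Atf7-/- natural mating livers were the 3 lowest, by 0.40 below WT (SE 0.10, adjusted p = 0.0176), which was lost without Atf7-/- natural mating replicate 1 or 2 or WT natural mating replicate 2 (up to 0.0694) and with only those groups (0.06).

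**Figure D5:**
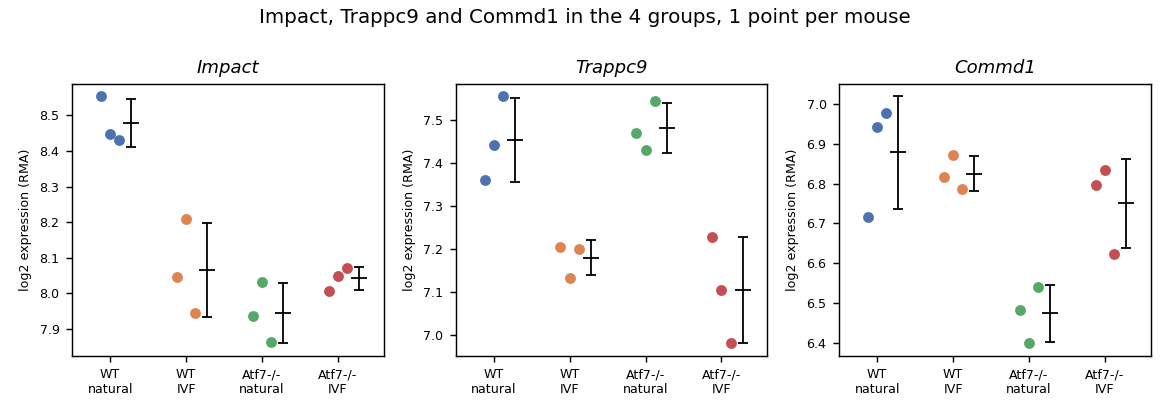
Log2 expression of Impact, Trappc9 and Commd1 (vertical axis, log2 signal) in the 4 groups, 1 point per mouse with the group mean as a short line and the SD (n = 3) as a bar beside the points. The WT natural mating livers are the highest for Impact, the IVF livers of each genotype lie below its natural mating livers for Trappc9, and the Atf7-/- natural mating livers are the lowest for Commd1.

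Cell markers also differed between the natural mating groups. Of the 24 stellate and fibroblast markers, 6 were called higher with ATF7 loss and 0 lower (median 0.38). Of 12 Kupffer cell and macrophage markers, 1 was called higher and 4 lower (median -0.37). Of 24 cell-cycle genes, 2 were called higher, and their mean level ran from 6.41 to 6.91 in WT natural mating and from 6.94 to 7.83 in Atf7-/- natural mating. Of 16 endothelial markers 2 and of 5 cholangiocyte markers 1 were called higher, and of 18 blood markers 2 were called lower. Of 15 hepatocyte markers, 1 was called higher (Hnf4a, 0.68, limma adjusted p = 0.0039) and 0 lower (median -0.06). Hnf4a was called lower with IVF in Atf7-/- (-0.76, limma adjusted p = 0.00252). Of 11 fetal liver genes, 1 was called higher (median 0.31). Their mean level ran from 6.93 to 7.28 in WT natural mating and from 7.52 to 7.70 in Atf7-/- natural mating. The part of these in the levels of Peg10, Phlda2, Slc22a18, Cd81 and Sgce was not tested.

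The interaction term asks whether the effect of IVF differed between the genotypes. It was negative and called for 3 of 43 genes (6.98%), beside 3.46% of all probe sets, and 0 were called higher beside 2.72%. With any fold, 4 of 43 (9.3%) passed beside 7.25%. The 3 genes were Phlda2 (-1.27, SE 0.25, adjusted p = 0.0139), Peg10 (-1.22, SE 0.23, adjusted p = 0.0116) and Cd81 (-0.76, SE 0.14, adjusted p = 0.0109). Impact went the other way (0.51, SE 0.13, adjusted p = 0.0358), below the fold required. Cell markers moved with the same term. Of the 24 stellate markers 3 were called lower (median -0.31), of the 24 cell-cycle genes 1 (median -1.38), of the 16 endothelial markers 1 (Clec4g, -1.10) and of the 15 hepatocyte markers 1 (Hnf4a, -0.74), and of the 12 Kupffer cell and macrophage markers 2 were called higher and 1 lower (median 0.39). Of the 18 blood markers 1 was called higher. The 11 fetal liver genes had a median of -0.38 with 0 called. The part of these in the interaction of Phlda2, Peg10, Cd81 and Impact was not tested. For Sgce (-0.89, adjusted p = 0.12) and Slc22a18 (-0.45, adjusted p = 0.11) the difference did not pass. The contrast of IVF in Atf7-/- and that of ATF7 loss share the Atf7-/- natural mating arrays, and that of IVF in WT shares the WT natural mating arrays with ATF7 loss, so a change in either shared group enters both.

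After IVF the genotypes differed at 0 of 43 imprinted genes in either direction, beside 0% of all probe sets higher, 0.00575% lower and 0.00575% with any fold, and 0 of 43 had an unadjusted p under 0.05 by limma, beside 6.12% of all probe sets. The largest values were 0.28 for Peg10 (SE 0.16) and 0.22 for Slc22a18 and Ndn. The SE of these differences does not show that the genotypes were alike.

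The remaining 30 genes did not pass in any of the 6 tests, with log2 fold changes from -0.46 to 0.55 and SE of 0.07 to 0.36. Closest was Grb10 with ATF7 loss (0.55, adjusted p = 0.0676). In the Dlk1-Dio3 region, the paternal growth regulator Dlk1, the retrotransposon-derived Rtl1 and the thyroid hormone deiodinase Dio3 and the maternal long non-coding RNAs Meg3 and Rian were not called, the largest values being 0.44 for the Meg3 interaction (adjusted p = 0.207) and 0.38 for Meg3 with IVF in Atf7-/- (adjusted p = 0.102). The paternal zinc finger genes Peg3 and Plagl1 had the values 0.29 with IVF in WT (SE 0.25) and 0.39 with ATF7 loss (adjusted p = 0.155). Peg3 had the largest within-group SD of the list, 0.35, and Nap1l4, a nucleosome assembly gene, the smallest, 0.04. The median within-group SD was 0.13 over the 43 genes and 0.16 over all probe sets. Usp29, Zim1, Klf14, Slc22a2, Kcnk9, Nnat, Blcap, Rasgrf1, Sfmbt2 and Htr2a complete the uncalled genes. The median of the paternal genes was 0.009 and that of the maternal genes -0.063 with IVF in WT, -0.025 and -0.004 with IVF in Atf7-/-, and -0.002 and -0.015 with loss of ATF7.

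Neighbouring imprinted genes were also examined for variation together among mice of the same group. Of 16 listed pairs, 10 had both genes measured, and deviations from the group means were correlated over the 12 arrays. None passed in the exact permutation within groups (1296 orders, two-sided, smallest possible p 0.00077), with 0 pairs at an unadjusted p under 0.05 and a lowest adjusted p of 0.324. Peg10 and Sgce had r = 0.581 (rho = 0.476, exact p = 0.133 and 0.207, adjusted p = 0.332 and 0.664), and 0.434 without the 2 most distant arrays. Ndn and Magel2 had r = -0.702 (rho = -0.559, exact p = 0.0802 and 0.157, adjusted p = 0.324 and 0.664), and -0.359 without the 2 most distant arrays. Phlda2 and Slc22a18, which changed together between groups, had r = -0.164 within them (rho = 0.0699, exact p = 0.802 and 0.865, adjusted p = 0.892 and 0.927), and -0.41 without the 2 most distant arrays.

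A list of 30 genes that establish or keep imprints included the DNA methyltransferases, ZFP57 and Polycomb subunits. Its median with IVF was 0.10 in WT and 0.14 in Atf7-/-, beside -0.04 and 0.01 for all probe sets. Its mean level ran from 7.29 to 7.36 in the WT natural mating livers and from 7.41 to 7.49 in the WT IVF livers. In Atf7-/- liver it ran from 7.265 to 7.279 after natural mating and from 7.38 to 7.49 after IVF. With IVF, 0 of the 30 were called in WT. In Atf7-/-, 2 were called higher, beside 3.27% of all probe sets. These were Eed (0.72, SE 0.12, adjusted p = 0.00381), a Polycomb subunit that binds the H3K27 methyl mark, and Arid4b (0.65, SE 0.10, adjusted p = 0.00236), a chromatin protein. With ATF7 loss, Eed was called lower, by -0.68 (SE 0.12, adjusted p = 0.00472). The other imprinted genes measured, 14 of 20 listed, included Mest, whose neighbour is Copg2 and which was called higher with IVF in WT (0.96, SE 0.24, adjusted p = 0.033) and with ATF7 loss (1.46, SE 0.24, adjusted p = 0.00259), with a called interaction (-1.42, SE 0.34, adjusted p = 0.0307). Dhcr7, the last enzyme of cholesterol synthesis, was called lower with IVF in Atf7-/- (-1.22, SE 0.26, adjusted p = 0.0102) and higher with ATF7 loss (0.85, SE 0.26, adjusted p = 0.0495). Igf2, a fetal growth factor, was called higher with IVF in Atf7-/- (0.68, SE 0.14, adjusted p = 0.0109). It was not called with IVF in WT or for the interaction. The paper reports Igf2 as upregulated by IVF in WT liver too, by slightly less than the fold required for a call. A response of Igf2 limited to Atf7-/- liver is therefore not shown. Airn, a silencing long RNA, was called lower with IVF in WT (-0.74, SE 0.19, adjusted p = 0.0361).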

How the data were processed

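Liver RNA of 12 mice was hybridised singly to Affymetrix Mouse Gene 1.0 ST arrays. The authors normalised the scans with RMA in affy and deposited log2 values per probe set (34760), which were used unchanged. The sources used here do not give versions or filters. Probe sets were named from the platform annotation where it gave 1 symbol (21640), and those with several (1321) or none (11799) named no gene. The precision is limited by 3 arrays per group. RMA shrinks differences of dim probe sets.

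Group means were fitted to all 12 arrays with limma 3.58.1 in R 4.3.3 (lmFit, eBayes, 8 residual degrees of freedom), with Benjamini-Hochberg adjustment over all probe sets. Calls required an adjusted p no greater than 0.05 and a log2 fold change of 0.6 or more in size, as in the study's methods. The steps were tested on simulated data. Correlations, motifs and plots used Python 3.11.15 with numpy 2.4.6 and matplotlib 3.10.9. Promoters came from RefSeq (GRCm38.p6). The imprinted genes and the other lists were chosen with earlier results of these data known. Every listed gene was accounted for, values per array were given for genes that passed a test, and of each other list up to 4 called genes with the largest changes could be named. Alternatives were leaving out each array, a filter on dim probe sets, array centring or further quantile normalization, fits of only the groups compared, array weights, an intensity trend, other thresholds, and a replicate block.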

Additional observations from a re-analysis of the deposited data

Results flagged for a closer look

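The effect of IVF differed between WT and Atf7-/- liver, by the interaction term of limma, for 4 imprinted genes. For Phlda2 the difference was -1.27 on the log2 scale (adjusted p = 0.0139). For Peg10 it was -1.22 (adjusted p = 0.0116), and for Cd81 -0.76 (adjusted p = 0.0109). These 3 remained past the threshold in each of the 12 fits that left out an array and under 8 other settings. For Impact it was 0.51 (adjusted p = 0.0358), below the fold required for a call, and it was lost in 9 of the 12 left-out fits (adjusted p 0.0302 to 0.0917 over the 12) and when arrays were centred on the median (0.0638).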

How the results depend on the processing

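Over the named results and all alternatives, 466 of 542 kept their side of the threshold, 76 lost it and 0 reversed. Leaving out each array in turn gave 0 to 2 called genes with IVF in WT (0 when leaving out WT natural mating replicate 1 or WT IVF replicate 3), 4 to 5 with IVF in Atf7-/-, 4 to 6 with ATF7 loss in natural mating, 0 to 0 with ATF7 loss in IVF, 3 to 3 for the interaction and 8 to 11 over the 4 groups. With only the groups compared, 1 gene was called with IVF in WT. With no minimum fold the counts were 5 with IVF in WT, 8 with IVF in Atf7-/- and 9 with ATF7 loss in natural mating. The medians over the 43 genes moved by more than the spread between arrays (0.038) to 0.060 with IVF in WT, 0.070 with ATF7 loss in natural mating and -0.084 for the interaction when arrays were centred on the median, and to 0.053 with IVF in WT after further quantile normalization. Leaving out each array gave medians of -0.022 to 0.019 for IVF in WT, -0.050 to 0.025 for IVF in Atf7-/-, -0.013 to 0.029 for ATF7 loss in natural mating, -0.002 to 0.053 for ATF7 loss in IVF and -0.019 to 0.039 for the interaction, so the sign of none of these medians held throughout. No clear pairing of the mice by replicate number was seen. Of 18 same-number correlations of deviations, 3 were over 0.1, and 5 of 12 arrays correlated best with their own number. With 3 arrays per group these counts cannot settle whether mice were paired. With the replicate block the counts were 2, 4, 5, 0 and 3 for the contrasts in the order above and 10 over the 4 groups, and Copg2 with IVF in WT (adjusted p = 0.0551) and Osbpl5 with ATF7 loss (0.0641) no longer passed. A filter on dim probe sets kept 26 of 43 genes and gave 13 over the 4 groups. The cause of these shifts was not tested.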

Other observations

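The lowest of the 12 values fell in WT natural mating replicate 3 for 8 of the 43 imprinted genes (Peg3, Cdkn1c, Peg10, Sgce, Grb10, Blcap, Plagl1 and Dcn), and 10.4% of all probe sets had their lowest value there. The same array held the highest value for 5 of the 43 genes and for 14.3% of all probe sets. Peg3 was at 7.64 in that liver and at 8.89 and 8.51 in the other two of the group. Ndn, Mkrn3, Osbpl5, Rtl1, Meg3, Rian and Rasgrf1 were lowest in Atf7-/- natural mating replicate 1, where 7.72% of all probe sets were lowest. That array held the highest value for 2 of the 43 genes and for 8.31% of all probe sets. These arrays were singled out after their values were seen.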
